A study of Danio rerio with 6 samples.

Results

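Heat shock chaperones and genes of the unfolded protein response were examined in RNA from regenerating adult zebrafish (Danio rerio) hearts. The set comprised 39 genes listed by symbol, with hsp70.1 taken by its identifier because the authors' deposited comparison table labels that identifier mcm5. Of the 39, 33 had a row in the comparison table of 33737 genes, and 29 of these also had a row in the table of 32105 genes that gives FPKM (read fragments per length of the gene and per size of the library) in every sample. There were 3 samples from Tg(hsp70l:DN-MAML) fish and 3 from wild-type (WT) fish, all of the TU-AB strain and 6 to 12 months old. Per the labels, hearts of both groups were amputated, fish of both groups were heat shocked daily (38 C, 1 h), and hearts were collected on day 5 after amputation. DN-MAML is a truncated, dominant-negative Mastermind that blocks transcription by Notch, and here it was driven by the promoter of hsp70l, itself one of the genes described. That promoter responds to heat in many cell types, so by design the transgene is not directed to 1 cell type of the heart. Where it was expressed in these hearts was not measured here. The interval between the last heat shock and collection, and whether a sample pools several hearts, are not stated in the labels.

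Chaperones bind unfolded proteins and help them reach or regain their shape. In the cytosol, heat activates the transcription factor Hsf1, which induces HSP70, HSP90, small heat shock proteins and their cochaperones. Unfolded proteins in the endoplasmic reticulum (ER) are sensed separately, and the factors Xbp1, Atf6 and Atf4 then act. Xbp1 and Atf6 raise ER chaperones and degradation genes, and Atf4 raises other stress genes, among them ddit3. In heart muscle, chaperones and the cochaperone Bag3 also maintain the proteins of the sarcomere.

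The cardiomyocyte myosin light chain gene myl7 had 10942 to 13719 FPKM in DN-MAML samples and 11341 to 15848 FPKM in WT samples. The first principal component (36.8% of the variance) placed WT replicate 1 at 1.3, between the DN-MAML samples (-28.1 to -10.1) and the other WT samples (25.8 and 33.8). Summed FPKM of 11 erythroid entries were 11410.0 to 17370.0 in DN-MAML and 18530.0 to 32840.0 in WT samples. For 14 cardiomyocyte markers the sums were 51670.0 to 60040.0 in DN-MAML and 58740.0 to 68200.0 in WT samples, and for 9 leukocyte markers 284 to 333 in DN-MAML and 207 to 294 in WT samples. For 5 smooth muscle markers they were 254 to 302.5 in DN-MAML and 380 to 475 in WT samples, a gap carried by acta2 and tagln. Of the 4 tested, 2 were on the higher side, and smtnb was above WT in every DN-MAML sample (36.65 to 44.82 FPKM, against 30.11 to 35.24 FPKM in WT). For 7 epicardial markers the sums were 647 to 696 in DN-MAML samples, and 677, 427 and 448 in WT replicates 1, 2 and 3. For 9 endothelial markers they were 240 to 309 in DN-MAML and 228 to 271 in WT samples. For 6 fibroblast markers they were 1163 to 1696 in DN-MAML and 932 to 1804 in WT samples. The leukocyte marker tyrobp was listed at 0 in WT replicate 1 and was at most 0.28 FPKM in the other samples. The part of these differences in the results was not tested, and in whole hearts fewer cells of a type and less RNA per cell cannot be told apart.

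The 29 genes differed widely in level per gene length. The small heat shock protein gene hspb1 had 8416, 8242 and 8023 FPKM in the DN-MAML replicates and 7050, 8406 and 7922 FPKM in the WT replicates. It alone supplied 50.9% to 54.4% of the summed FPKM of the 29 genes in DN-MAML samples and 51.4% to 53.4% in WT samples. The groups overlapped, and the log2 difference (DN-MAML minus WT, on the log2(FPKM + 0.5) scale) was 0.08 with a standard error (SE) of 0.08. With hspb1, the cytosolic HSP90 gene hsp90ab1 and the small heat shock protein gene hspb11 stayed above 1000 FPKM in every sample. At the other end, 6 genes stayed under 20 FPKM in every sample, among them hsp70.1, hsp70.2 and hsp70.3. The highest sample was less than 2 times the lowest for 17 genes and at least 4 times the lowest for 7 genes.

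**Figure D1:**
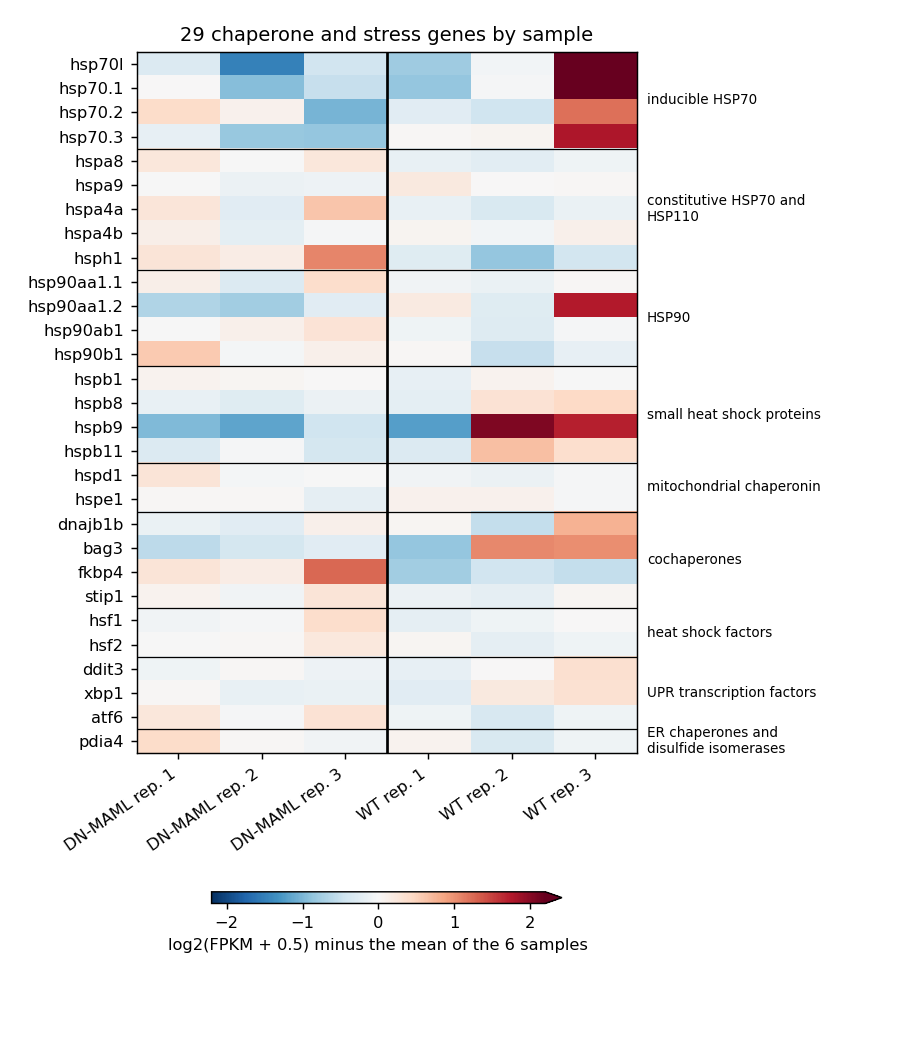
Heat map of 29 chaperone and stress genes (rows, grouped by role) in the 3 DN-MAML and 3 WT samples (columns); colour gives log2(FPKM + 0.5) minus the gene's mean over the 6 samples, and values above the top of the scale take its darkest colour. The inducible HSP70 genes and hsp90aa1.2 are darkest in WT replicate 3, hspb9 and bag3 in WT replicates 2 and 3, and fkbp4 and hsph1 in DN-MAML replicate 3.

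DN-MAML was compared with WT to ask which genes differ when Notch is blocked during regeneration. In limma, 0 of the 29 genes passed an adjusted p of 0.05 (Benjamini-Hochberg over the 16556 genes tested), where the background was 0.0966% of all genes (0.0544% higher and 0.0423% lower). The lowest adjusted p was 0.236, for fkbp4. Without adjustment, 5 genes had a p under 0.05, all higher in DN-MAML (17.2% of the 29, against 6.99% of all genes in that direction and 13.2% in either): fkbp4, hsph1, hspa8, hsp90ab1 and atf6. None was lower, against 6.23% of all genes. In the authors' deposited table, which per the file headers rests on normalized counts, 3 of the 32 members with an adjusted p were higher past 0.05 and 0 lower (9.38% higher; of all genes 2.11% were higher, 2.27% lower and 4.38% either). These 3 were fkbp4, hsph1 and atf6. The members were chosen with earlier results of these data known, so none of these shares tests the set. The groups did not overlap for 7 of the 29 genes, 5 higher and 2 lower (24.1%; of all genes 9.83% were higher, 8.98% lower and 18.8% either). Of the 29, 14 were on the higher side (48.3%, against 55.1% of all genes) and 15 on the lower side. Their median log2 difference was -0.08, against 0.03 over all genes tested.

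**Figure D2:**
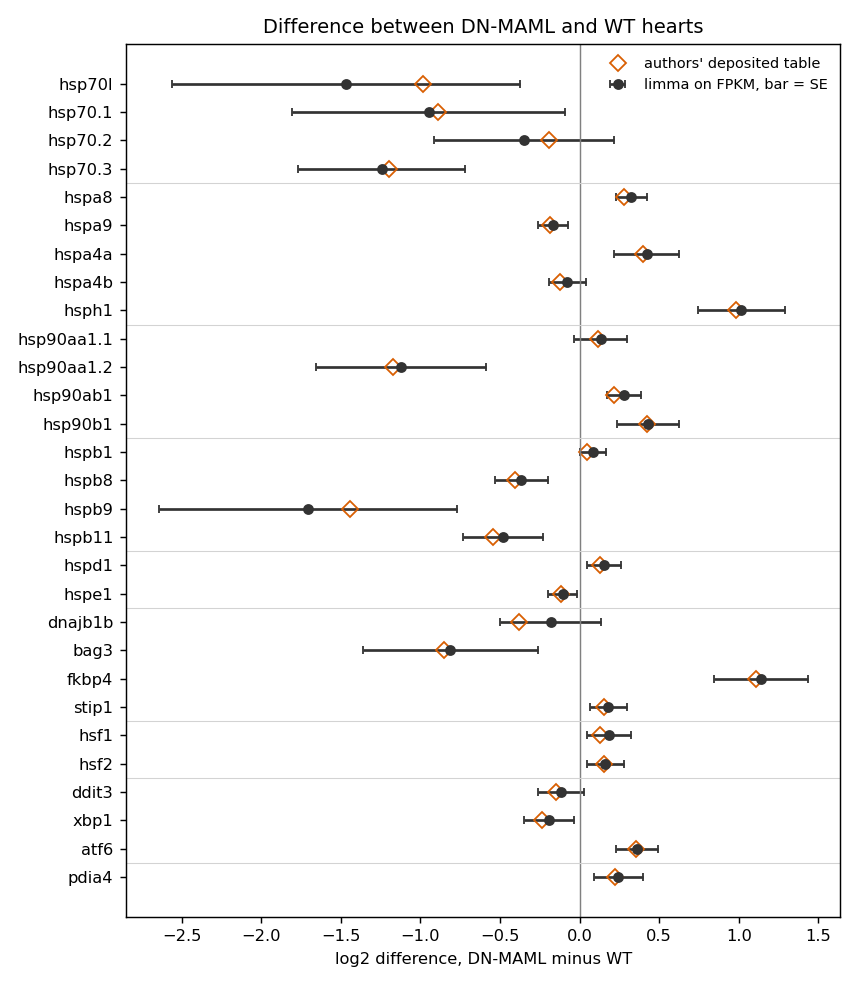
Log2 difference (horizontal axis, DN-MAML minus WT) of 29 genes, as limma's estimate on log2(FPKM + 0.5) with its SE (filled points and bars) and as given in the authors' deposited table (open diamonds). The estimates for fkbp4 and hsph1 lie near 1 in both sources, and the widest bars belong to hsp70l, hspb9 and hsp70.1.

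Among the HSP90 cochaperones, fkbp4 was higher in DN-MAML. Fkbp4 (FKBP52) is a peptidyl-prolyl isomerase that joins HSP90 in steroid receptor complexes. It had 279, 256 and 548 FPKM in DN-MAML replicates 1, 2 and 3, and 135, 171 and 158 FPKM in WT replicates 1, 2 and 3. All DN-MAML samples were above all WT samples, and DN-MAML replicate 3 was the highest. The mean was 361 ± 162 FPKM in DN-MAML and 155 ± 18.1 FPKM in WT (SD, n = 3 each), a ratio of 2.33. The log2 difference was 1.14 (SE 0.30; limma, adjusted p = 0.236), and 0.79 without DN-MAML replicate 3. The authors' deposited table gives fkbp4 a log2 change of 1.11 (adjusted p = 0.0011) and a mean normalized count of 30030.0.

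hsph1, an HSP110 protein that exchanges nucleotide on HSP70, was higher with it. It had 98.8, 90.5 and 171 FPKM in the DN-MAML replicates, against 67.4, 44.6 and 60.7 FPKM in the WT replicates. Again the groups did not overlap and DN-MAML replicate 3 was the highest. The log2 difference was 1.02 (SE 0.27; limma, adjusted p = 0.239), and the authors' deposited table gives 0.98 (adjusted p = 0.00101). When each sample was left out in turn, limma's log2 difference of hsph1 ran from 0.73 to 1.19. Its relatives hspa4a and hspa4b, also HSP110 proteins, had overlapping groups. hspa4a had 104, 72.8 and 133 FPKM in DN-MAML and 77.6, 68.8 and 78.2 FPKM in WT samples (log2 difference 0.42, SE 0.21), and hspa4b had a log2 difference of -0.08 (SE 0.12).

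hspa8, the constitutive cytosolic HSP70, had 737, 612 and 736 FPKM in DN-MAML, against 553, 529.6 and 577 FPKM in WT samples. The groups did not overlap, and the log2 difference of 0.33 (SE 0.10) did not pass limma's test over all genes (adjusted p = 0.252). hsp90ab1 likewise separated the groups, with 2062, 2240.2 and 2555 FPKM in DN-MAML and 1940.2, 1694 and 2022 FPKM in WT samples (log2 difference 0.28, SE 0.11; limma, adjusted p = 0.333). The gap between the nearest samples of the groups was small in both genes. In the authors' deposited table the adjusted p was 0.093 for hspa8 and 0.299 for hsp90ab1. stip1, the adaptor that passes clients from HSP70 to HSP90, had 385, 347 and 445 FPKM in DN-MAML and 336, 322 and 379 FPKM in WT samples, with overlapping groups (log2 difference 0.18, SE 0.12). hsp90aa1.1, which in zebrafish is needed for myosin folding in muscle, also overlapped (log2 difference 0.13, SE 0.17).

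The inducible HSP70 genes were not uniformly lower in DN-MAML; 1 WT sample set them apart. hsp70l had 6.84, 2.72 and 6.23 FPKM in the DN-MAML replicates, against 4.77, 8.10 and 73.78 FPKM in the WT replicates. WT replicate 3 was thus the only sample above 10 FPKM, while WT replicate 1 lay inside the DN-MAML range and WT replicate 2 just above it. The log2 difference was -1.47 with an SE of 1.09 (limma, adjusted p = 0.605), and -0.31 without WT replicate 3. The authors' deposited table gives hsp70l a log2 change of -0.98 and no p-value. The tables do not tell the transgene from the gene, so the level of hsp70l is no measure of the transgene.

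The neighbouring copies hsp70.1, hsp70.2 and hsp70.3 (adjacent in the RefSeq annotation of GRCz12tu) were also highest in WT replicate 3. hsp70.1 had 3.08, 1.36 and 2.00 FPKM in DN-MAML and 1.46, 2.97 and 17.05 FPKM in WT samples, and without WT replicate 3 its log2 difference was -0.03 in place of -0.95 (SE 0.86). hsp70.2 had 3.47, 2.70 and 0.98 FPKM in DN-MAML and 2.04, 1.71 and 6.44 FPKM in WT samples, and its log2 difference of -0.35 (SE 0.57) was 0.17 without WT replicate 3. hsp70.3 was the exception in that its groups did not overlap, with 4.16, 2.49 and 2.43 FPKM in DN-MAML, against 4.88, 5.03 and 17.70 FPKM in WT samples. Its log2 difference was -1.24 (SE 0.52; limma, adjusted p = 0.393; authors' deposited table, adjusted p = 0.0629), and -0.66 without WT replicate 3. Together the inducible HSP70 genes (4) had 17.6, 9.27 and 11.6 FPKM in DN-MAML, against 13.2, 17.8 and 115 FPKM in WT samples.

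Values of single HSP70 copies are uncertain, because these genes are close copies of each other and how shared reads were counted is not stated in the labels. The ratio of FPKM to normalized count was taken for these copies. It also depends on gene length (hspe1 stood at 0.0429), so alone it does not show how shared reads were counted. The HSP70 genes hspa8 and hspa9 stood at 0.00782 and 0.00463. The part of length in the ratios of the hsp70 copies was not tested. Whether the values of the hsp70 copies, and their summed FPKM, hold the same reads more than once was not tested. Over 12080 genes with a mean normalized count of at least 100, the median was 0.00847 FPKM per normalized count, with a 90th percentile of 0.0202. hsp70.1 stood at 0.0668, hsp70.2 at 0.0672 and hsp70.3 at 0.0308, against 0.0138 for hsp70l. Their mean normalized counts in the authors' deposited table were 69.6, 43.0, 198 and 1239, so hsp70.1 and hsp70.2 were under that minimum of 100.

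**Figure D3:**
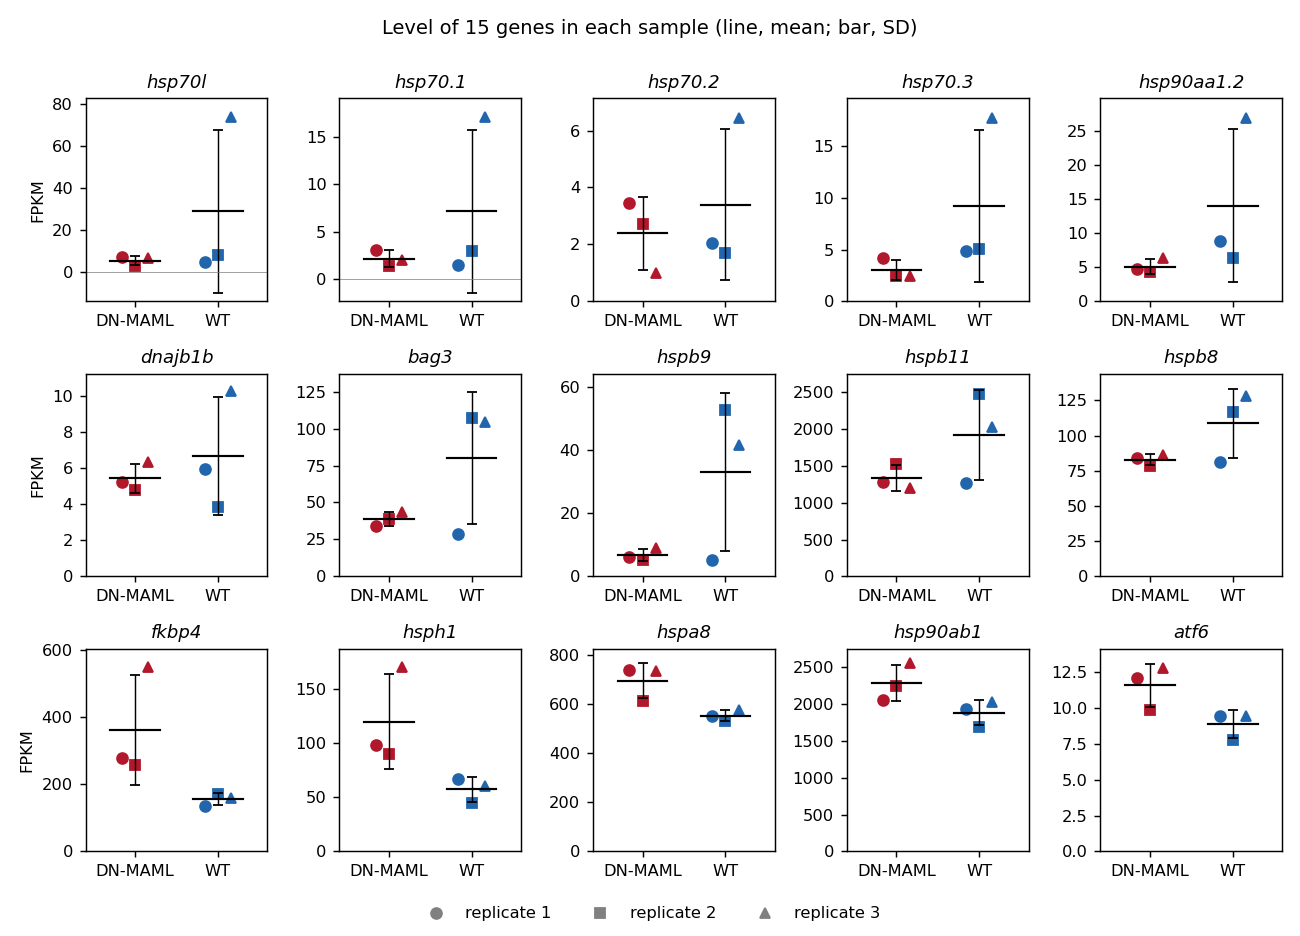
FPKM (vertical axes, linear) of 15 genes in DN-MAML (left) and WT samples (right); symbols mark the replicate number, lines the mean and bars the SD (n = 3). WT replicate 3 stands alone for hsp70l, hsp70.1, hsp70.2, hsp70.3 and hsp90aa1.2, WT replicate 1 lies with the DN-MAML samples for bag3, hspb9, hspb11 and hspb8, and all DN-MAML samples lie above all WT samples for fkbp4, hsph1, hspa8, hsp90ab1 and atf6.

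hsp90aa1.2 and dnajb1b were also highest in WT replicate 3. hsp90aa1.2, the neighbour of hsp90aa1.1, had 4.68, 4.29 and 6.33 FPKM in DN-MAML and 8.83, 6.32 and 26.90 FPKM in WT samples. DN-MAML replicate 3 and WT replicate 2 met at about the same level, and the other DN-MAML samples lay below all WT samples. The log2 difference was -1.12 (SE 0.54; limma, adjusted p = 0.435), and -0.53 without WT replicate 3. dnajb1b, a J-domain protein that stimulates HSP70, had 5.23, 4.8 and 6.36 FPKM in DN-MAML and 5.97, 3.87 and 10.29 FPKM in WT samples. Its log2 difference was -0.18 (SE 0.32), and 0.16 without WT replicate 3. WT replicate 3 was the highest of the 6 samples for 9 of the 29 genes and for 18.2% of all genes tested. DN-MAML replicate 3 was likewise the highest for 9 of the 29 genes, and for 25.1% of all genes tested. hsf1, the heat shock factor itself, had 20.74, 21.64 and 28.71 FPKM in DN-MAML and 19.01, 20.65 and 22.20 FPKM in WT samples (log2 difference 0.18, SE 0.14). hsf2, the second factor, had 7.54 to 9.06 FPKM in DN-MAML and 6.58 to 7.90 FPKM in WT samples, so both factors overlapped between the groups.

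A different pattern was seen for bag3 and most small heat shock protein genes, where WT replicate 1 lay near or below the DN-MAML samples and the other WT samples above them. WT replicate 1 lay inside the DN-MAML range for 12 of the 29 genes and for 45.4% of all genes tested. bag3, the cochaperone that links HSP70 to small heat shock proteins at the Z-disc, had 34.3, 39.1 and 43.3 FPKM in DN-MAML, against 28.4, 107 and 104 FPKM in WT samples. hspb9 had 6.07, 5.26 and 8.94 FPKM in DN-MAML and 5.06, 52.77 and 41.63 FPKM in WT samples. In both genes WT replicate 1 was the lowest of the 6 samples, while the other WT samples were well above every DN-MAML sample. With all samples the log2 difference was -0.81 for bag3 (SE 0.55) and -1.71 for hspb9 (SE 0.94), and neither passed limma's test (adjusted p = 0.569 and 0.492).

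Without WT replicate 1, bag3 and hspb9 were the 2 members past the threshold. Their log2 differences were then -1.44 and -2.74 (limma, adjusted p = 0.00452 and 0.00715). That fit kept DN-MAML replicate 1 and called 180 of 16556 genes, against 16 with all samples, and the remaining WT samples are 2. WT replicate 1 was the lowest of the 6 samples for both genes, so leaving it out was bound to widen their differences. These p-values are therefore no separate support. None of the other alternatives called bag3 (adjusted p up to 0.827) or hspb9 (up to 0.757). The authors' deposited table, with all samples, gives bag3 an adjusted p of 0.342 and hspb9 one of 0.116.

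hspb11, which the gene name table calls hspb9l, had 1277, 1533 and 1194 FPKM in DN-MAML and 1266, 2472 and 2027 FPKM in WT samples. hspb8, the partner of Bag3 in clearing misfolded proteins, had 84.0, 78.3 and 85.9 FPKM in DN-MAML and 81.1, 117 and 128 FPKM in WT samples. WT replicate 1 lay inside the DN-MAML range for both and the other WT samples above it. The log2 differences were -0.48 (SE 0.25) and -0.37 (SE 0.17), and without WT replicate 1 they were -0.75 and -0.56 (limma, adjusted p = 0.0633 and 0.0643). WT replicate 1 was the lowest WT sample for both, so leaving it out was bound to widen these differences as well. Immediate early genes, which respond fast to stimulation and handling, differed between the same libraries: the summed FPKM of 21 such genes were 411, 1066 and 1017 in DN-MAML replicates 1, 2 and 3, and 531, 1524 and 1620.0 in WT replicates 1, 2 and 3. The part of that difference in these results was not tested.

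**Figure D4:**
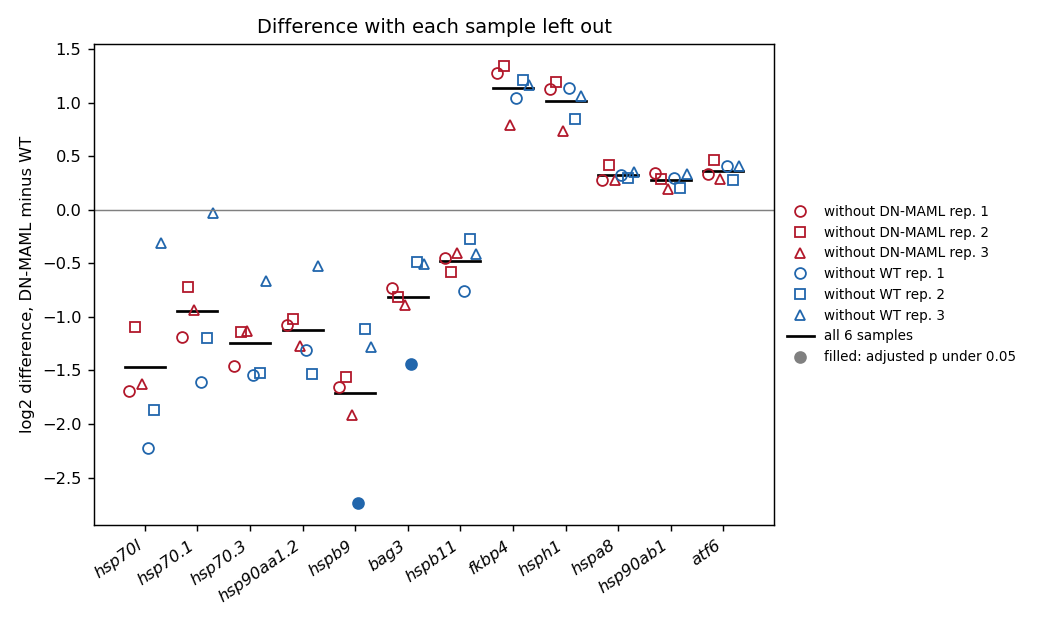
Log2 difference (vertical axis, DN-MAML minus WT) of 12 genes with all 6 samples (black lines) and with each sample left out (symbols; red, a DN-MAML sample left out; blue, a WT sample; filled, adjusted p under 0.05). Leaving out WT replicate 3 brings hsp70.1 to -0.03, leaving out WT replicate 1 brings hspb9 to -2.74 and bag3 to -1.44, and fkbp4 stays between 0.79 and 1.34.

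Mitochondrial chaperones differed little. hspa9, the mitochondrial HSP70, had 103, 93.9 and 94.8 FPKM in DN-MAML, against 120, 104 and 104 FPKM in WT samples. The groups did not overlap, by a narrow margin, with a log2 difference of -0.17 (SE 0.10; limma, adjusted p = 0.489). The chaperonin pair hspd1 (HSP60) and hspe1 (HSP10), which neighbour each other in the RefSeq annotation, overlapped in both genes. hspe1 had 648, 651 and 555 FPKM in DN-MAML and 682, 683 and 627 FPKM in WT samples, and the log2 differences were 0.15 (SE 0.10) for hspd1 and -0.11 (SE 0.09) for hspe1.

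Of the factors of the unfolded protein response, atf6 was higher in DN-MAML in the authors' deposited table. Atf6 is held in the ER membrane and is released by cleavage when unfolded proteins build up. It had 12.10, 9.90 and 12.78 FPKM in DN-MAML, against 9.46, 7.76 and 9.45 FPKM in WT samples, with no overlap. The log2 difference was 0.36 (SE 0.13; limma, adjusted p = 0.312), and the authors' deposited table gives 0.36 (adjusted p = 0.0412). xbp1, whose RNA is spliced by the sensor Ire1, had 96.0, 84.7 and 85.6 FPKM in DN-MAML and 79.7, 109 and 119 FPKM in WT samples. ddit3 (CHOP), a target of Atf4, had 28.2, 30.8 and 27.9 FPKM in DN-MAML and 26.5, 30.2 and 38.7 FPKM in WT samples. Both overlapped between the groups (log2 differences -0.19 and -0.12). FPKM per gene does not show the splicing of xbp1 or the cleavage of Atf6.

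ER chaperones overlapped between the groups. hsp90b1 (GRP94) had 154, 100.3 and 113 FPKM in DN-MAML and 106, 73.2 and 91.9 FPKM in WT samples (log2 difference 0.43, SE 0.19; limma, adjusted p = 0.398). pdia4, a disulfide isomerase, had 83.2, 64.5 and 60.0 FPKM in DN-MAML and 66.1, 49.9 and 58.8 FPKM in WT samples (log2 difference 0.24, SE 0.15). WT replicate 2 was the lowest sample for both, and it was the lowest sample for 11 of the 29 genes and for 38.3% of all genes tested.

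The remaining members were accounted for as follows. hspa5 (BiP), hspbp1, dnajb1a and calr had a row in the comparison table only, and the authors' deposited table gives them log2 changes of -0.16, -0.08, -0.29 and 0.03 (adjusted p = 0.632, 0.915, 0.551 and 0.952). ahsa1a, ahsa1b, atf4a, atf4b, calr3b and pdia6 had no row under these symbols. The gene name tables gave other identifiers for 9 of these 10 genes in the FPKM table. These lie outside the rule, and their log2 differences ran from -0.22 to 0.25 with overlapping groups in all 9 (limma, adjusted p = 0.523 to 0.982). The HSP70 of the ER, hspa5, had 35.5, 25.1 and 34.4 FPKM in DN-MAML and 38.1, 31.7 and 33.0 FPKM in WT samples under its other identifier. atf4b, which the comparison table calls atf4b2, had 104, 113 and 96.5 FPKM in DN-MAML and 99.1, 121 and 136 FPKM in WT samples. For calr the name tables disagree on the identifier, so the entry counted for it among the 9 is uncertain. atf4a, the other zebrafish Atf4 gene, was matched to the entry that the comparison table calls atf4b1. That entry had 199, 183 and 160.3 FPKM in DN-MAML and 199, 164 and 186 FPKM in WT samples. The gene name tables also give atf4a another identifier, which has no row, so this match is uncertain too. ahsa1b, an activator of the HSP90 ATPase, stands in the authors' deposited table as ahsa1l with a log2 change of -0.15 (adjusted p = 0.616).

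Other genes of the same pathways were examined as lists. Of 36 other cytosolic chaperone genes tested, 12 were on the higher side (33.3%, against 55.1% of all genes) and 24 on the lower side. The median log2 difference was -0.07, and 0 passed limma's test (lowest adjusted p = 0.107). At an unadjusted p under 0.05, 3 were higher and 4 lower (8.33% and 11.1%, against 6.99% and 6.23% of all genes). The groups did not overlap for 11 of the 36 (30.6%, against 18.8% of all genes), 4 higher and 7 lower. The authors' deposited table calls 4 of 37 lower and 1 higher (10.8% and 2.7%, against 2.27% and 2.11% of all genes). dnajb4, a J-domain protein, had 7.36, 6.36 and 6.27 FPKM in DN-MAML, against 10.56, 10.31 and 11.75 FPKM in WT samples, with no overlap (log2 difference -0.67, SE 0.11; authors' deposited table, adjusted p = 2.24e-06). dnajb6b, another J-domain protein, also separated the groups, with 45.6 to 50.4 FPKM in DN-MAML and 56.2 to 62.5 FPKM in WT samples (authors' deposited table, adjusted p = 0.0341). dnajb5 had 4.43, 6.13 and 4.47 FPKM in DN-MAML and 4.97, 16.46 and 14.78 FPKM in WT samples, so WT replicate 1 again lay with DN-MAML (authors' deposited table, adjusted p = 0.0233). The other calls have no FPKM row: the small heat shock protein gene hspb12, with a log2 change of -1.32 in the authors' deposited table (adjusted p = 5.17e-05), and smyd1b, a methyltransferase that acts with HSP90 in myosin assembly, with 0.64 (adjusted p = 0.0386).

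Of 45 other ER folding and degradation genes tested, 33 were on the higher side (73.3%, against 55.1% of all genes), with a median of 0.12. None passed limma's test (lowest adjusted p = 0.148; 5 higher, 11.1% against 6.99% of all genes, and 0 lower at an unadjusted p under 0.05). Leaving out DN-MAML replicate 1 gave a median of 0.056, and leaving out WT replicate 2 one of -0.005. The authors' deposited table calls 2 of 41 higher, selenos and edem1 (4.88%, against 2.11% of all genes). selenos, deposited under its older name vimp and a selenoprotein of the ER membrane that takes part in exporting misfolded proteins, had 23.70, 21.09 and 24.41 FPKM in DN-MAML, against 15.57, 17.01 and 13.22 FPKM in WT samples (log2 difference 0.58, SE 0.12; authors' deposited table, adjusted p = 0.0134). edem1, which marks misfolded glycoproteins for degradation, had 8.76, 8.17 and 9.03 FPKM in DN-MAML, against 7.13, 5.65 and 6.76 FPKM in WT samples (log2 difference 0.39, SE 0.12; authors' deposited table, adjusted p = 0.0231). Both separated the groups in every sample. The groups did not overlap for 6 of the 45, all higher (13.3%; of all genes 9.83% were higher, 8.98% lower and 18.8% either).

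Among 28 other sensors and integrated stress response genes tested, 14 were on each side, with a median of 0.008, and 0 passed limma's test (lowest adjusted p = 0.107). At an unadjusted p under 0.05, 3 were higher and 1 lower (10.7% and 3.57%, against 6.99% and 6.23% of all genes). The authors' deposited table calls 1 of 27 higher (3.7%, against 2.11% of all genes), creb3l3b, a transcription factor held in the ER membrane that the table lists as CREB3L3 (2 of 2). The gene had 19.85, 16.57 and 22.84 FPKM in DN-MAML, against 10.94, 9.57 and 11.59 FPKM in WT samples, with no overlap (log2 difference 0.85, SE 0.14; authors' deposited table, adjusted p = 4.32e-07). The 14 genes of the cytosolic chaperonin CCT and of prefoldin had 7 on each side (median 0.001), where cct8 had 285 to 318 FPKM in DN-MAML and 238 to 267 FPKM in WT samples (limma, adjusted p = 0.294). pfdn5 had 48.0 to 57.4 FPKM in DN-MAML and 37.4 to 45.4 FPKM in WT samples (limma, adjusted p = 0.330). Neither list had a member past limma's threshold; the CCT and prefoldin list had 2 higher at an unadjusted p under 0.05 (14.3%, against 6.99% of all genes) and 0 calls in the authors' deposited table.

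Of 14 other mitochondrial chaperone and protease genes tested, 5 were on the higher side (35.7%, against 55.1% of all genes) and 9 on the lower side. The median was -0.045, and 0 passed limma's test (lowest adjusted p = 0.264). At an unadjusted p under 0.05 there were 0 higher and 2 lower (14.3% lower, against 6.23% of all genes). The transcription factors atf5a and atf5b, which the list also held, are counted with the stress response genes. clpxb, the unfoldase of the ClpXP protease, had 16.72, 14.22 and 14.07 FPKM in DN-MAML, against 18.55, 18.46 and 19.67 FPKM in WT samples, with no overlap. Its log2 difference was -0.33 (SE 0.10), and the authors' deposited table calls it lower (adjusted p = 0.0144), the 1 call among 14 (7.14%, against 2.27% of all genes lower).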

How the data were processed

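RNA of 6 heart samples was sequenced. The submitters' processing notes name DESeq2, featureCounts, STAR, cutadapt and FastQC; build, annotation and strand setting: not given in the sources used here. FPKM per gene and sample were deposited by the authors, rounded to 0.01. Their second table holds, per the file headers, a mean normalized count (signal), a log2 fold change with its standard error, a statistic (score), and unadjusted and adjusted p-values; 15520 of its genes have no adjusted p. Its sign was checked against the FPKM, and positive means higher in DN-MAML. Its log2 changes and limma's are unlike estimates, from normalized counts and from log2(FPKM + 0.5), and their sizes can differ. hsp70l had -0.98 in that table and -1.47 in limma, hspb9 -1.44 and -1.71, and hsp90aa1.2 -1.17 and -1.12. Why they differ was not tested.

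No counts per sample were used: 1 normalized count is worth a median of 0.00847 FPKM, below the rounding, so whole reads were not recovered and depth per sample is unknown.

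log2(FPKM + 0.5) was tested in limma 3.58.1 (R 4.3.3; trend, robust, no block) on the 16556 genes averaging at least 0.5 FPKM, which kept 29 of 29 members with FPKM, with Benjamini-Hochberg adjustment over all of them. The added 0.5 understates changes of low genes. The labels do not say that samples are separate animals, so p-values reflect only the spread between samples, which may be technical. Tested on simulated data of 16556 genes, limma recovered 58% of 50 genes shifted by 1 log2 unit and 10% of 50 shifted by 0.5, with 14 calls among unchanged genes. The simulation drew independent errors from each gene's observed spread, without effects that a sample has on many genes. These rates therefore need not hold for the measured samples.

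Members and lists were chosen with earlier results of these data known. Described by sample were members past 0.05 in either source, without overlap, or with a range of at least 4 times, the inducible HSP70 genes, hsf1 and the most abundant of each role; other members shown by sample were added after their values were seen. List genes without an FPKM row under their symbol were matched through the gene name tables, except htra2, a name of many copies. From each list, up to 6 genes past 0.05 in either source, or else the 2 of smallest p, were named. Alternatives were other pseudocounts, minimums and scalings, no robust estimate, a replicate block, and leaving out each sample. Python 3.11.15 made tables and figures.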

Additional observations from a re-analysis of the deposited data

How the results depend on the processing

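The 29 members were refitted under 14 alternatives, 406 values in all. Of these, 398 kept their direction and their side of the threshold and 2 passed it (bag3 and hspb9 without WT replicate 1). The other 6, none past the threshold, changed sign: hspa4b without DN-MAML replicate 2 (0.014), hsp70.2 and hsp90aa1.1 without DN-MAML replicate 3 (0.072 and -0.026), and hsp70.2, dnajb1b and ddit3 without WT replicate 3 (0.17, 0.16 and 0.032). Over all samples left out in turn, these log2 differences ran from -0.16 to 0.014 (hspa4b), -0.66 to 0.17 (hsp70.2), -0.026 to 0.32 (hsp90aa1.1), -0.50 to 0.16 (dnajb1b) and -0.24 to 0.032 (ddit3). The number of members called was 0 to 2 when a sample was left out and 0 otherwise. The number of genes called, 16, was 9 with a minimum of 2 FPKM, 10 after quantile normalization and 4 to 180 when a sample was left out. The members' median log2 difference, -0.08, ran from -0.10 to 0.16 when a sample was left out. The number of members without overlap, 7, ran from 7 to 16 (without WT replicate 1, where 37.2% of all genes did not overlap). Leaving out a sample can only narrow the range of its group, so this number could stay or rise but not fall. Of the 3 calls in the authors' deposited table, fkbp4 and hsph1 also had an adjusted p under 0.01. With the replicate number as a block, limma called 0 genes and 0 members. The main fit had no block by plan. Deviations of same-numbered samples correlated at 0.208, -0.0264 and 0.14, and only 1 and 3 correlated best with their own number. With 3 samples per group, these values cannot settle whether the numbers pair the samples. Replicate 1 had the lowest summed FPKM of immediate early genes in both groups (411 in DN-MAML, 531 in WT). Whether same-numbered samples shared a step of collection was not tested. What sets WT replicates 1 and 3 apart was not tested. Depth per sample is unknown, and the mean normalized counts pool all samples. For genes under 10 FPKM in most samples, the HSP70 copies among them, precision is thus not known beyond the spread of 3 samples.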

Other observations

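Other genes of the chaperone and stress pathways are named here after their values were seen. fkbp5, an HSP90-binding relative of fkbp4 that glucocorticoids induce in mammals, had 5.78, 74.02 and 107.78 FPKM in DN-MAML replicates 1, 2 and 3, and 4.33, 241.17 and 246.43 FPKM in WT replicates 1, 2 and 3. The highest sample was thus 56.9 times the lowest, replicate 1 of each group was near 5 FPKM, and the log2 difference of -0.84 had an SE of 2.02 (limma, adjusted p = 0.892). chac1, a glutathione-degrading enzyme induced through Atf4, had 39.2, 104 and 96.0 FPKM in DN-MAML and 73.9, 268 and 276 FPKM in WT samples (limma, adjusted p = 0.484). The pseudokinase gene trib3, another target of that pathway, had 13.93, 28.44 and 33.13 FPKM in DN-MAML and 19.54, 41.34 and 55.18 FPKM in WT samples. atf3, a transcription factor gene counted among both the stress response and the immediate early genes, had 4.28, 13.22 and 5.49 FPKM in DN-MAML and 4.95, 157.93 and 143.57 FPKM in WT samples. The authors' deposited table gives it a log2 change of -1.59 and no p-value. In fkbp5, chac1, trib3 and atf3, replicate 1 was the lowest of its group in both groups.

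unc45b, the myosin chaperone that works with HSP90, had 60.8, 44.0 and 84.3 FPKM in DN-MAML and 47.3, 47.1 and 53.0 FPKM in WT samples. The groups overlapped, and DN-MAML replicate 3 was the highest, as for fkbp4 and hsph1 and for 25.1% of all genes tested. HSPA8 (1 of 2), by its name a second copy of hspa8, had 513, 287 and 595 FPKM in DN-MAML and 377, 219 and 273 FPKM in WT samples (log2 difference 0.65, SE 0.33; limma, adjusted p = 0.450). HSPA4L, named for a further HSP110 protein, had 0.20, 0.19 and 0.21 FPKM in DN-MAML, against 0.47, 0.58 and 0.49 FPKM in WT samples. It was under the minimum and not tested, and the authors' deposited table gives it a log2 change of -1.27 (adjusted p = 0.000346) at a mean normalized count of 78.9.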
